A study of Mus musculus with 6 samples.

Results

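Glycogen metabolism enzymes were examined in mouse SVF cells (stromal vascular fraction, the precursor-containing cells of fat) that overexpressed either of 2 mutants of PPARγ2, the nuclear receptor that directs adipocyte differentiation. The 9 genes were Gyg1, Gys1, Gbe1, Pgm1, Ugp2, Pygl, Pygb, Ppp1r3b and Ppp1r3c, out of 56884 gene IDs in each table. They were selected with their levels in the same comparison of the mutants already known, so their own differences are described here without p-values, and counts of calls among them are given only beside the shares over all genes. All 9 passed the filter on low values, a TPM (a transcript's length-corrected share of its library) no lower than 0.5 in any 3 or more of the 6 libraries, which kept 15426 genes.

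In K382Q, the glutamine in place of lysine mimics acetylation of PPARγ2 (labelled PPARr2 K382Q), and in K382R, the arginine mimics the deacetylated receptor (labelled PPARr2 K382R). RNA was sequenced on day 2 of beige differentiation, with 3 biological replicates of each mutant. Both groups came from a scWAT (subcutaneous white adipose tissue) SVF cell line of the mouse, carried a retroviral HA-tagged transgene selected with puromycin, and received the same medium with 500 µM isobutylmethylxanthine, 125 µM indomethacin, 2 µg/mL dexamethasone, insulin at 5 µg/mL, T3 at 1 nM and the PPARγ agonist rosiglitazone at 0.5 µM. Cells without a transgene or with the wild-type receptor were not analysed here, so each value compares the mutants with each other. Because the replicates share a line, the error measures the spread between cultures and libraries of that line. Each mutant was introduced by its own retrovirus. Whether the replicates came from separate transductions is not given in the sources used here, so the error may not cover differences between transduced pools.

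Glycogen is the branched glucose polymer that animal cells keep as a short-term store. Phosphoglucomutase turns glucose 6-phosphate into glucose 1-phosphate, UDP-glucose pyrophosphorylase activates it to UDP-glucose, glycogenin primes a chain, glycogen synthase lengthens it and branching enzyme adds the branches. Glycogen phosphorylase releases glucose 1-phosphate again. Targeting subunits bring protein phosphatase 1 (PP1) to the glycogen particle, where it activates the synthase and inactivates the phosphorylase. Differentiating brown and beige adipocytes are known to accumulate glycogen.

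The cells had the markers of their label. Summed over 7 adipocyte markers, TPM was 52270 to 55970 in K382Q and 43840 to 45040 in K382R, most of it Fabp4. Within that list, Fabp4 and Cidec were higher in K382Q, while Pparg, Cebpa, Adipoq and Lpl were lower. The 6 preadipocyte and fibroblast markers summed to 462.6 to 508.8 TPM in K382Q and 773.5 to 811.3 TPM in K382R, and all 4 that passed the filter were lower in K382Q. Pparg, whose reads include the transgene, was 1333, 1164 and 1104 TPM in the K382Q replicates and 1590, 1632 and 1612 TPM in the K382R replicates, a log2 difference of -0.43 (SE 0.06, adjusted p = 0.00098 by limma). The part of these differences in the results on glycogen genes was not tested. Because these are bulk libraries, fewer cells of a type and less RNA per cell cannot be told apart. Liver and muscle cells, whose isoforms of glycogen enzymes are named below, had low levels of their markers. Ttr and Serpina1a of the hepatocyte list and Myod1, Myog and Myh1 of the muscle list were listed at 0 in all 6 libraries. The hepatocyte list summed to 1.28 to 1.80 TPM in K382Q and 0.256 to 0.985 TPM in K382R, and the muscle list to 2.21 to 2.97 TPM and 4.59 to 5.76 TPM, nearly all of it Acta1. Alb of the hepatocyte list was at 0.631, 0.483 and 0.788 TPM in K382Q and at 0.0413, 0 and 0 TPM in K382R, so it was higher in K382Q, as were Pygl and Ppp1r3b, and its part in their values was not tested. Aligned sequence was estimated at 5.95 to 7.5 Gb per K382Q library and 6.53 to 8.15 Gb per K382R library.

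Every one of the 9 genes had a higher mean in K382Q than in K382R, by 1.035-fold for Pygb to 9.25-fold for Ppp1r3c. The log2 differences (of TPM + 0.5, K382Q against K382R) ran from 0.05 to 2.91 with a median of 0.59, while the median over all 15426 genes was -0.14. For 8 of the 9 genes the K382Q and K382R libraries did not overlap and K382Q was higher. Among all genes tested this held for 14.1%, and the opposite, K382Q lower without overlap, for 42.8%. The study called a gene differentially expressed at an adjusted p under 0.05 and a change over 2-fold, by DESeq2 on counts. With those thresholds applied here to limma on log2(TPM + 0.5), 4 of the 9 were called higher and 0 lower, beside 1.27% and 2.61% of all genes. Pygl, 1 of the 4, was under 2-fold with a pseudocount of 1, with FPKM and without K382Q replicate 2. By the adjusted p alone, 7 were higher, beside 11.1% higher and 36.9% lower among all genes. Since the genes were chosen on this comparison, nothing is read from these counts. The genes fell into a graded set: Ppp1r3c, Ppp1r3b, Gbe1 and Pygl differed by more than 2-fold, Pgm1 and Gys1 by about 1.5-fold, Ugp2 by 1.21-fold, Gyg1 by 1.039-fold and Pygb by 1.035-fold.

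**Figure D1:**
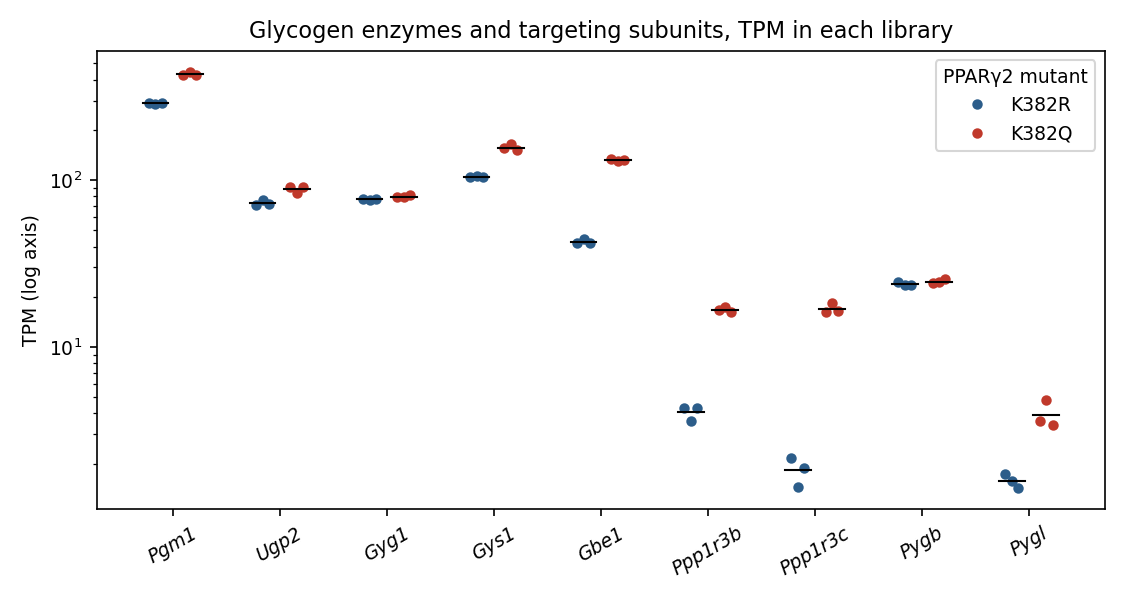
TPM (log axis) of the 9 glycogen genes in each library; each point is a library, blue for K382R and red for K382Q, and the bars mark the means of 3 replicates. Ppp1r3c lay at 1.44 to 2.17 TPM in K382R and 16.3 to 18.2 TPM in K382Q, whereas the points of Pygb overlapped.

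The promoters of 3 of the genes with the widest differences are printed here, because they show how unlike the sequences are that precede genes with higher values in K382Q. Each is the 250 bases before the start site in RefSeq on GRCm38.p6, 5′ to 3′ on the strand of the gene. The expression tables use GRCm39, so these positions are not those of the tables. Capitals mark ACGTG or GCGTG, which are core letters of the hypoxia response element, and AGGTCA, the half-site of nuclear receptors such as PPARγ, on either strand. The window of Ppp1r3c lies at chr19:36736605-36736854 (minus strand), that of Gbe1 at chr16:70313699-70313948 (plus strand) and that of Pygl at chr12:70227684-70227933 (minus strand).
Ppp1r3c: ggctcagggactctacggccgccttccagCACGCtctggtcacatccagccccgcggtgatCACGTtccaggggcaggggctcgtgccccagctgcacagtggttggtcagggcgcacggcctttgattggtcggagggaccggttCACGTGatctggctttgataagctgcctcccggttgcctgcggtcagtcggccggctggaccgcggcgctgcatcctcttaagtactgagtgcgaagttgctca
Gbe1: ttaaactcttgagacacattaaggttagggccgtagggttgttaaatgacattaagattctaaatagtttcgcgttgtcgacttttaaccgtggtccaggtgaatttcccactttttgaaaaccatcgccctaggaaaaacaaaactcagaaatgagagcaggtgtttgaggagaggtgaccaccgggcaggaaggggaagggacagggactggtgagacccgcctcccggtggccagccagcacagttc
Pygl: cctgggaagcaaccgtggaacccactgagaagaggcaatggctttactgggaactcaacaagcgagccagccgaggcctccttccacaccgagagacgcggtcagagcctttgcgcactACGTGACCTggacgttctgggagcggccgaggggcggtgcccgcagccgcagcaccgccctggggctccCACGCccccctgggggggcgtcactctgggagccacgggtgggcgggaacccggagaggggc
In the Ppp1r3c window, ACGTG stood 189 to 185 bases before the start site and again within CACGTG, a palindromic E-box, 104 to 99 bases before it. A GCGTG stood 221 to 217 bases before the start. The Gbe1 window held none of the letters searched. In the Pygl window, ACGTG at 131 to 127 bases ran into the half-site at 128 to 123 bases before the start, and the pair share bases.

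Windows were found for 8 of the 9 genes, with 2 for Ugp2. ACGTG was in windows of Ppp1r3c, Pygl, Pygb, Ugp2 and Pgm1, and in 16.6% of all 32851 windows of that length. GCGTG was in windows of Ppp1r3c, Gyg1, Pygl, Pygb and Ugp2, and in 28.2% of all windows. CACGTG, which holds ACGTG, was only in that of Ppp1r3c among these windows and in 6.02% of all. AGGTCA was only in that of Pygl among these windows and in 14% of all, and the DR1 element, a pair of half-sites 1 base apart, was in none of them and in 0.0335% of all. The windows of Gbe1 and Gys1 held none of these letters. GC content was 64.4% for Ppp1r3c, 48.8% for Gbe1 and 69.2% for Pygl, with a median of 52.4% over all windows. ACGTG and GCGTG each hold a C followed by a G. That pair occurred 9 to 23 times in each window found here, with a median of 6 over all windows. The part of base composition in the shares above was not tested. Letters in a window are a description, not a measured binding site.

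Gyg1 encodes glycogenin, the protein that primes a new glycogen chain. The gene is ENSMUSG00000019528.19, named Gyg in the tables, at chr3:20176248-20209481 (GRCm39, minus strand). Its TPM was 78.8, 78.9 and 81.3 in the K382Q replicates and 77.5, 75.9 and 76.6 in the K382R replicates. The groups stood apart by little more than 1 TPM, and the log2 difference was 0.05 (SE 0.03). It was 0.19 above the median gene, and the log2 difference became 0.21 with either median-ratio scaling or quantile normalization.

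Gys1 encodes glycogen synthase of muscle and most other tissues, which adds glucose from UDP-glucose to the chain. It is ENSMUSG00000003865.17 at chr7:45084268-45106043 (plus strand). In the K382Q replicates, Gys1 was at 154.8, 164.1 and 151.7 TPM, and in the K382R replicates at 104.1, 105.8 and 104.5 TPM. All K382Q libraries were above all K382R libraries, with means of 156.9 ± 6.42 and 104.8 ± 0.841 TPM (SD, n = 3), a ratio of 1.497 and a log2 difference of 0.58 (SE 0.04). Its liver paralog Gys2 was at 1.16 ± 0.264 and 1.05 ± 0.178 TPM, so Gys1 made up 99.3% and 99.0% of the synthase transcripts. Gys2 did not pass the test (log2 difference 0.09, adjusted p = 0.71 by limma).

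Gbe1 encodes the branching enzyme and had the widest difference among the abundant genes of the set. It is ENSMUSG00000022707.17 at chr16:70110837-70366604 (plus strand). The K382Q replicates had 133.4, 129.9 and 131.5 TPM, and the K382R replicates had 41.9, 44.4 and 41.8 TPM. The replicates of each mutant lay within a few TPM of each other and far from those of the other mutant. The means were 131.6 ± 1.73 and 42.7 ± 1.47 TPM (SD, n = 3), 3.08-fold apart, with a log2 difference of 1.61 (SE 0.04). Branching enzyme relative to synthase shifted with it. The ratio of Gbe1 to Gys1 in TPM was 0.861, 0.792 and 0.867 in K382Q and 0.402, 0.420 and 0.400 in K382R. Glycogenin relative to synthase went the other way, with a ratio of Gyg1 to Gys1 of 0.509 ± 0.027 in K382Q and 0.732 ± 0.013 in K382R. Thus the 3 enzymes that build the polymer differed unequally between the mutants.

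Pgm1 encodes the main phosphoglucomutase and was the most abundant of the 9 genes in both mutants. It is ENSMUSG00000025791.19 at chr4:99786611-99844491 (plus strand), and the ID matters because the symbols Pgm1 and Pgm2 were exchanged between mouse genes in the past. Its level was 429.1, 447.2 and 425.0 TPM in the K382Q replicates and 289.4, 285.8 and 291.1 TPM in the K382R replicates. The groups did not overlap, with a ratio of 1.502 and a log2 difference of 0.59 (SE 0.03). The related Pgm2, which acts mainly on phosphopentoses, went in the opposite direction, from 22.2 ± 0.300 TPM in K382R to 15.6 ± 0.291 TPM in K382Q (log2 difference -0.50, SE 0.05, adjusted p = 9e-05 by limma). Pgm2l1, which makes glucose 1,6-bisphosphate, was at 3.67 ± 0.476 and 4.01 ± 0.193 TPM and did not pass (adjusted p = 0.44). The share of Pgm1 in the summed TPM of the family was 95.7% ± 0.155 in K382Q and 91.7% ± 0.141 in K382R.

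Ugp2 encodes UDP-glucose pyrophosphorylase, which makes the donor of glucose for the synthase. It is ENSMUSG00000001891.17 at chr11:21271138-21321201 (minus strand). Ugp2 was at 91.1, 84.0 and 90.4 TPM in the K382Q replicates and 71.0, 76.5 and 71.9 TPM in the K382R replicates. The lowest K382Q library was above the highest K382R library, and the log2 difference was 0.27 (SE 0.05). For Ugp2, this became 0.42 with median-ratio scaling and 0.43 with quantile normalization. Of its exonic bases, 19% are shared with Vps54 on the opposite strand, and for Pgm1 16.7% are shared with Itgb3bp. For Gys1 and Gyg1, the largest such shares were 7.69% and 5.25%, for Ppp1r3b 0.644%, and Gbe1, Ppp1r3c, Pygl and Pygb shared none. Whether counting used strand is not given in the sources used here, so reads of these overlaps may belong to either gene.

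Pygl and Pygb encode the liver and brain isoforms of glycogen phosphorylase, and they differed from each other in this comparison. Pygl is ENSMUSG00000021069.18 at chr12:70237585-70278262 (minus strand) and Pygb is ENSMUSG00000033059.8 at chr2:150628655-150673678 (plus strand). Pygl was at 3.58, 4.79 and 3.43 TPM in the K382Q replicates and 1.73, 1.57 and 1.42 TPM in the K382R replicates. All K382Q libraries were higher, with a ratio of 2.50 and a log2 difference of 1.09 (SE 0.15). Pygb was at 24.2, 24.4 and 25.5 TPM in K382Q and 24.5, 23.5 and 23.6 TPM in K382R. It was the only gene of the 9 whose groups overlapped, with a log2 difference of 0.05 (SE 0.05). The log2 difference of Pygb became 0.20 with median-ratio scaling and 0.21 with quantile normalization. The muscle isoform Pygm was at 1.76 ± 0.215 and 1.39 ± 0.205 TPM and did not pass the test (log2 difference 0.26, adjusted p = 0.19 by limma).

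Because Pygb was the most abundant phosphorylase, the sum over the 3 isoforms differed little, with 30.4 ± 0.977 TPM in K382Q and 26.8 ± 0.610 TPM in K382R, a ratio of 1.13. The share of Pygl in that sum was 12.2%, 15.4% and 11.2% in K382Q and 6.28%, 5.87% and 5.42% in K382R. The ratio of Gys1 to the summed phosphorylases was 5.17 ± 0.186 in K382Q and 3.91 ± 0.103 in K382R, without overlap. Pygl rested on the shallowest reads of the set, an estimated depth per base of 8.38 to 14.7 in K382Q and 3.59 to 5.20 in K382R. Its log2 difference was 0.93 with a pseudocount of 1 and 0.92 with FPKM in place of TPM. Without K382Q replicate 2, its highest library, the log2 difference fell to 0.95.

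Ppp1r3b and Ppp1r3c encode glycogen-targeting subunits of PP1, the former known from liver and the latter (also called PTG) from many tissues. Ppp1r3b is ENSMUSG00000046794.10 at chr8:35842893-35855293 (plus strand) and Ppp1r3c is ENSMUSG00000067279.4 at chr19:36709131-36714053 (minus strand). Ppp1r3b was at 16.6, 17.4 and 16.1 TPM in the K382Q replicates and 4.32, 3.59 and 4.31 TPM in the K382R replicates. Each K382Q library was several-fold above each K382R library, a ratio of means of 4.11 and a log2 difference of 1.92 (SE 0.09). Ppp1r3c was at 16.3, 18.2 and 16.4 TPM in K382Q and 2.17, 1.44 and 1.89 TPM in K382R. This was the widest difference among the 9 genes, with means of 16.96 ± 1.103 and 1.834 ± 0.367 TPM (SD, n = 3), a ratio of 9.25 and a log2 difference of 2.91 (SE 0.13). The log2 difference of Ppp1r3c exceeded that of 99.95% of the genes tested. Its estimated depth per base was 40.0 to 56.1 in K382Q and 4.59 to 6.54 in K382R.

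**Figure D2:**
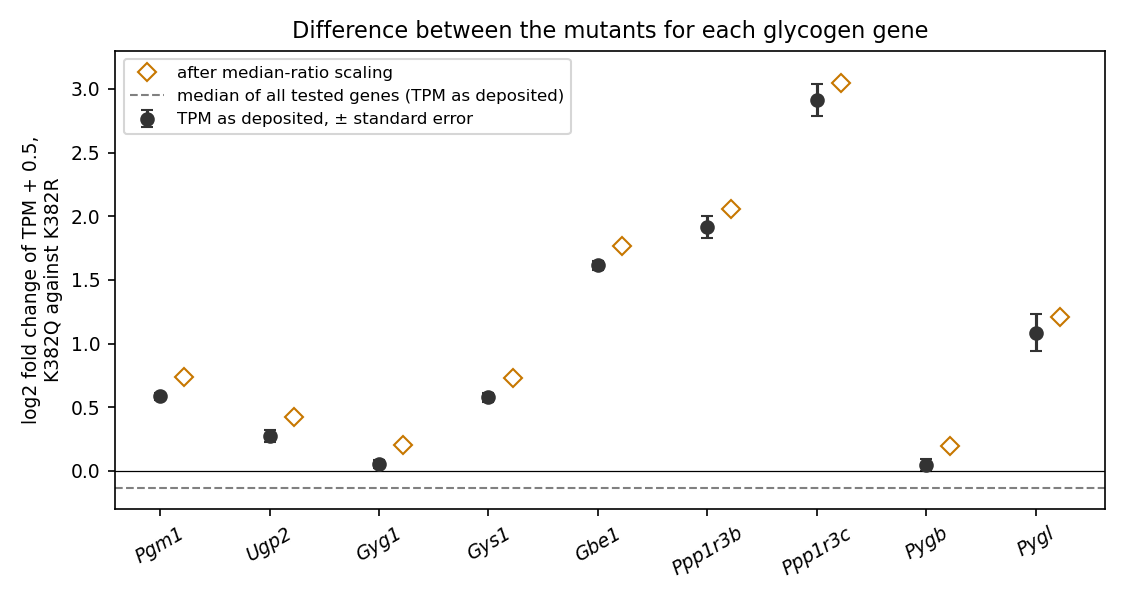
Log2 difference of TPM + 0.5 between the mutants for each gene (y axis; positive is higher in K382Q). Filled points are TPM as deposited with their standard errors, open diamonds the same after median-ratio scaling, and the dashed line is the median of all genes tested at -0.14; the genes run from 0.05 for Pygb to 2.91 for Ppp1r3c.

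The other targeting subunits differed less. Ppp1r3d was at 24.6, 21.7 and 24.1 TPM in K382Q and 16.4, 17.0 and 16.9 TPM in K382R, and rose (log2 difference 0.47, SE 0.06, adjusted p = 0.00045 by limma). Ppp1r3e was at 19.7 ± 1.29 and 17.1 ± 1.73 TPM (log2 difference 0.20, adjusted p = 0.077) and Ppp1r3f at 8.11 ± 0.972 and 6.80 ± 0.861 TPM (0.24, adjusted p = 0.14), and neither passed. Both were called higher after median-ratio scaling (0.35 and 0.38) and quantile normalization, and Ppp1r3e also with FPKM, with array weights, with the replicate block and without K382R replicate 3, with adjusted p from 0.011 to 0.21 for Ppp1r3e and 0.037 to 0.37 for Ppp1r3f over the 16 alternatives. Ppp1r3a, the subunit of striated muscle, was listed at 0 in all 6 libraries, and Ppp1r3g was at 0.031 TPM or less. Summed over the 7 subunits, TPM was 83.3, 86.3 and 85.4 in K382Q and 46.2, 43.8 and 49.6 in K382R. Ppp1r3c supplied 19.96% ± 1.03 of that sum in K382Q and 3.93% ± 0.707 in K382R, and Ppp1r3b 19.7% ± 0.681 and 8.74% ± 0.578. In K382R, the pair was thus a minor fraction of the targeting transcripts, and in K382Q each was just under the level of Ppp1r3e.

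**Figure D3:**
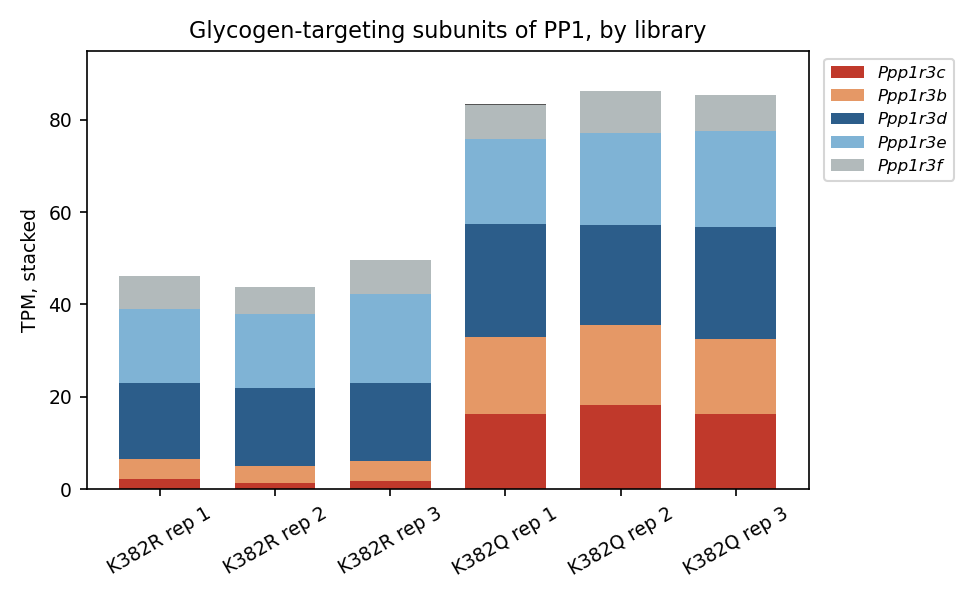
TPM of the glycogen-targeting subunits of PP1, stacked, in each library (x axis). The stacks reach 43.8 to 49.6 TPM in K382R and 83.3 to 86.3 TPM in K382Q, and the Ppp1r3c and Ppp1r3b segments are the ones that differ most; Ppp1r3a and Ppp1r3g are too low to see.

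Levels within each mutant gave an order that changed in the middle and at the bottom. TPM is scaled per transcript length, so genes can be compared. In K382Q the order was Pgm1, Gys1, Gbe1, Ugp2, Gyg1, Pygb, Ppp1r3c, Ppp1r3b and Pygl, and only the ranges of Ppp1r3c and Ppp1r3b overlapped between neighbours. In K382R it was Pgm1, Gys1, Gyg1, Ugp2, Gbe1, Pygb, Ppp1r3b, Ppp1r3c and Pygl, and the ranges of Gyg1 and Ugp2, and of Ppp1r3c and Pygl, overlapped. Gbe1 was at rank 3 in K382Q and rank 5 in K382R. Summed over the 9 genes, TPM was 952.7 ± 14.4 in K382Q and 617.4 ± 0.941 in K382R, a ratio of 1.54, and Pgm1 was the largest part of both sums.

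The genes most like Ppp1r3c were sought over the 6 libraries by the root mean square difference of log2(TPM + 0.5), each gene centred on its own mean. The 5 closest were Smim41 (0.20), Gpr15lg (0.25), Ndufa4l2 (0.28), Selenbp1 (0.28) and Thrsp (0.31). Smim41 was at a mean of 14.9 TPM in K382Q and 1.96 TPM in K382R, close to the means of Ppp1r3c. The likeness is set mainly by the difference between the mutants, since the 6 libraries form only those 2 groups.

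The rest of the pathway was read from a list of 45 genes, of which 39 passed the filter on low values. By limma, 9 were higher and 12 lower in K382Q at an adjusted p under 0.05, and 18 did not pass. The same rule called 11.1% of the 15426 genes higher and 36.9% lower. None reached the 2-fold threshold on this log2 scale, although Epm2a lay just under it at 0.995 and above it, at 1.13, after median-ratio scaling. Their median log2 difference was -0.08, beside -0.14 over all genes. The 6 genes that did not pass the filter included Ppp1r3a, Ppp1r3g, Hk3, and G6pc1 and G6pc2, the catalytic subunits of glucose 6-phosphatase of liver and islet. The 9 that rose did so under each of the 16 alternative settings. Of the 12 that fell, 5 did so under each of them, namely Pgm2, Gaa, Prkaa1, Ugdh and Galm. Calls of the others depended on the setting: after median-ratio scaling, which moved the median gene from -0.14 to 0.004, 5 of the 12 remained called lower, and Phkb and Ppp1ca changed sign under at least 1 setting.

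Of the 5 tested genes of glucose 6-phosphate supply and exit, 3 rose and 0 fell (11.1% and 36.9% of all genes). Gpi1, which interconverts glucose 6-phosphate and fructose 6-phosphate, rose from 422.8 ± 2.94 to 684.9 ± 26.1 TPM (log2 difference 0.69, SE 0.03, adjusted p = 4e-06 by limma). The hexokinases Hk1 and Hk2 rose by less, 0.28 (SE 0.04) and 0.27 (SE 0.04), or 0.43 and 0.42 after median-ratio scaling. The phosphatase G6pc3 and the transporter Slc37a4 did not pass, at -0.08 and 0.05.

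Among the 12 kinases and other regulators, 3 rose and 4 fell, beside 11.1% and 36.9% of all genes. Epm2a, which encodes laforin, the glycogen phosphatase mutated in Lafora disease, rose from 2.10 ± 0.212 to 4.70 ± 0.687 TPM (log2 difference 1.00, SE 0.13, adjusted p = 0.0006 by limma). Stbd1, which tethers glycogen to membranes and links it to lysosomal breakdown, rose from 17.3 ± 0.508 to 29.3 ± 3.26 TPM (0.74, SE 0.08, adjusted p = 0.00021). Prkab2, a glycogen-binding β subunit of AMPK, rose from 18.1 ± 1.12 to 27.2 ± 0.602 TPM (0.58, SE 0.06, adjusted p = 0.00012). Prkab1, the other β subunit, was at 43.5 ± 4.59 TPM in K382Q and 48.1 ± 0.962 TPM in K382R and did not pass (-0.15, adjusted p = 0.13). Prkaa1, a catalytic subunit of AMPK, fell from 67.7 ± 1.79 to 46.3 ± 1.44 TPM (-0.54, SE 0.04, adjusted p = 2.7e-05). The synthase kinase Gsk3a (-0.17) and the AMPK γ subunits Prkag1 (-0.16) and Prkag2 (-0.25) also fell, but these 3 calls were not kept under every scaling. Nhlrc1, the ubiquitin ligase malin that partners laforin, did not pass (-0.09, adjusted p = 0.65).

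Of the 8 other breakdown genes, 0 rose and 3 fell, the latter close to the 36.9% of all genes that were lower. After median-ratio scaling or quantile normalization, 1 rose (Phka2, log2 difference 0.18 with the former) and 1 fell (Gaa). Gaa, the lysosomal acid α-glucosidase, fell from 166.0 ± 5.12 to 118.9 ± 3.03 TPM (log2 difference -0.48, SE 0.04, adjusted p = 2.8e-05 by limma). Phkb and Phkg2, subunits of phosphorylase kinase, fell by 0.16 and 0.30 on the log2 scale, and both calls were lost under median-ratio scaling, quantile normalization, FPKM and the replicate block, without K382Q replicate 3 and without K382R replicate 2 or 3, and that of Phkb also without K382Q replicate 2 or K382R replicate 1. That of Phkg2 was also lost with no filter on low values or no intensity trend. The PP1 catalytic subunits Ppp1ca (-0.13) and Ppp1cb (-0.19) fell by less than 1.2-fold, Ppp1cc did not pass (-0.12), and both calls were lost after median-ratio scaling and with FPKM. The call of Ppp1cb was also lost after quantile normalization, with no filter, with no intensity trend, without K382Q replicate 2 or 3, and without each K382R replicate in turn.

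In the branch that links UDP-glucose and galactose, 2 of 5 genes rose and 2 fell, beside 11.1% and 36.9% of all genes. Galk1, galactokinase, rose from 87.1 ± 2.65 to 124.7 ± 5.96 TPM (log2 difference 0.52, SE 0.04, adjusted p = 5.5e-05 by limma). Galm, galactose mutarotase, fell from 31.5 ± 0.883 to 19.4 ± 0.942 TPM (-0.68, SE 0.05, adjusted p = 3.3e-05), the largest decrease among the 39 genes. Ugdh, which diverts UDP-glucose to UDP-glucuronate, fell by 0.29 on the log2 scale (SE 0.04, adjusted p = 0.00063). After median-ratio scaling, Ugdh was still called lower, at a log2 difference of -0.13. Galt did not pass (-0.01).

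**Figure D4:**
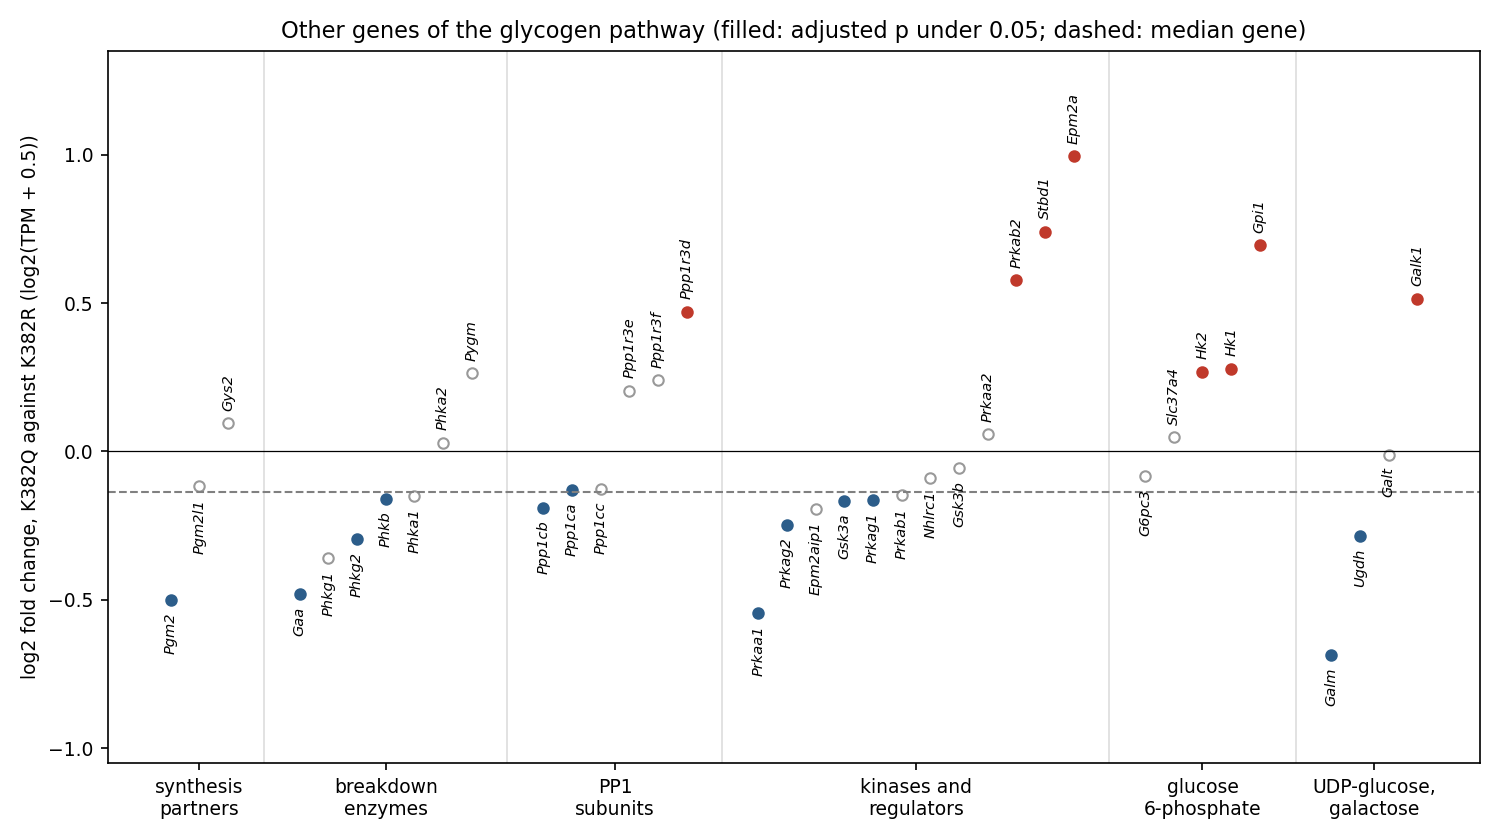
Log2 difference of TPM + 0.5 between the mutants (y axis; positive is higher in K382Q) for other genes of the pathway, grouped by role and without the few that are not reported here. Filled points passed at an adjusted p under 0.05, red where higher and blue where lower, open points did not, and the dashed line marks the median of all genes tested; Epm2a is highest at 1.00 and Galm lowest at -0.68.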

How the data were processed

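RNA-seq libraries (3 K382Q, 3 K382R) were prepared with the NEBNext Ultra kit. The submitters' processing notes name HISAT2, StringTie and GRCm39. The release of the annotation is not given in the sources used here. The authors deposited 1 StringTie gene table per library with coverage (mean depth per base, not normalized), FPKM and TPM, which shows shares of transcripts and not amounts. Entries with a repeated gene ID (3 to 5 per library) were summed. The aligned sequence of a library was estimated as the commonest ratio of coverage to FPKM, to 2 decimals, among genes with an FPKM over 5. Only 11.88% to 12.34% of those genes had that ratio. Depth per base of a gene was estimated as its FPKM multiplied by that value, and is not its deposited coverage. Counts were not analysed here, so precision is that of 3 replicates. Log2(TPM + 0.5) was fitted with limma 3.58.1 (R 4.3.3) with an intensity trend over 15426 genes, with Benjamini-Hochberg adjustment over all of them; this scale understates changes of low genes. The fit was tested on simulated data. Other steps used Python 3.11.15 (pandas 2.3.3, numpy 2.4.6, matplotlib 3.10.9). Gyg1 and G6pc1, listed as Gyg and G6pc, were matched by ID through GENCODE, which also gave exon overlaps. Named genes were the 9 genes, the called or same-family genes of the list of 45, and the 5 nearest to Ppp1r3c. A few genes of that list are counted but not reported here. The genes, lists and markers were chosen with earlier results of these data known. Alternatives were other pseudocounts, filters, scalings and variance models, a replicate block and leaving out each library. Replicates were not duplicates: at most 0.0583% of tested genes had identical values in 2 libraries.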

Additional observations from a re-analysis of the deposited data

How the results depend on the processing

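No log2 difference of the 9 glycogen genes changed sign under the 16 alternative settings. Of the 144 values, 120 moved by less than the replicate spread and 24 by more, with another pseudocount, FPKM, median-ratio scaling or quantile normalization. Other filters, no intensity trend and the replicate block cannot change a log2 difference here, so part of the 120 was fixed in advance. Under each of FPKM, median-ratio scaling and quantile normalization, Gbe1, Gys1, Gyg1, Pygb, Ugp2 and Pgm1 moved by more than the spread. The ranges were 2.63 to 3.16 for Ppp1r3c, 1.81 to 2.06 for Ppp1r3b, 1.60 to 1.77 for Gbe1, 0.92 to 1.26 for Pygl, 0.56 to 0.74 for Pgm1, 0.55 to 0.73 for Gys1, 0.25 to 0.43 for Ugp2, 0.04 to 0.21 for Gyg1 and 0.03 to 0.21 for Pygb. Calls here are by limma, not by the DESeq2 test of the study. Of all genes, 599 were called (196 higher, 403 lower), against 379 with FPKM, 443 with a pseudocount of 1 (145 and 298), 889 with one of 0.1 (286 and 603) and 1864 at a fold over 1.5. The split was 287 higher and 297 lower with median-ratio scaling, 277 and 306 with quantile normalization, and 152 and 227 with FPKM. Among the other pathway genes, 12 were lower, against 5, 6 and 7 under those 3 settings, and 9 were higher, against 12, 12 and 10. Leaving out 1 library gave 562 to 616 genes called, 9 to 10 pathway genes higher and 9 to 13 lower. With the replicate block, 604 genes were called, with 10 pathway genes higher and 11 lower; same-numbered libraries correlated at -0.02, 0.05 and 0.02, so the numbers did not pair them. Among the 9 genes, counting depth limits Pygl and, in K382R, Ppp1r3c most.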
